A study of Mus musculus with 24 samples.

Results

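The miR-26 family was followed in serum extracellular vesicles (EVs) of mice after bone surgery. The members were 3 mature miRNAs of the family, mmu-miR-26a-5p, mmu-miR-26b-5p and mmu-miR-26b-3p, out of 1966 mature miRNAs in the count table. They were found by name, and the family was selected on its measured levels in these same 24 libraries. The levels by group and the fold changes below are therefore a description, and no p-value is given for them. A miR-26a or miR-26b name was carried by 5 rows. The other 2, mmu-miR-26a-1-3p and mmu-miR-26a-2-3p, were not members and are given only beside them.

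All mice were C57BL/6, wild type and 14 to 16 weeks old, and each group held 6 mice. S6h, S24h and S72h mice had an open stabilized tibia fracture under isoflurane and buprenorphine, and serum was taken 6, 24 or 72 h later. Control mice had no operation and received saline. EVs were precipitated from serum with an ExoQuick kit, and small RNA libraries were made from their RNA. S24h and S72h mice also received analgesia daily and belonged to an animal set with controls of its own, which are not analysed here, so time after surgery, analgesia and animal set cannot be told apart. The study kept a single control set because its own test found no significant difference between its control sets. The preparation holds vesicles from any tissue that releases them into blood, and precipitation also recovers particles that are not vesicles.

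A miRNA is a short RNA cut from a hairpin precursor, and bases 2 to 8 of its 5′ end, the seed, pair with target messenger RNAs and lower their output. miR-26a and miR-26b are made in most tissues and are known as brakes on cell growth. In mammals their hairpins lie in introns of genes for small CTD phosphatases, a family known to oppose cell cycle entry and neuronal gene expression outside the nervous system.

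The mature sequences are shown first because a shared seed is what joins the 5p members, and because the seed separates them from the 3p member. Sequences are from RefSeq on the GRCm38.p6 mouse assembly, 5′ to 3′, with the seed in capitals.
mmu-miR-26a-5p: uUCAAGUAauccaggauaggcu
mmu-miR-26b-5p: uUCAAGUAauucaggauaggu
mmu-miR-26b-3p: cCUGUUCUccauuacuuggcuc
mmu-miR-26a-2-3p: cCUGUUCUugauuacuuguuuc
mmu-miR-26a-1-3p: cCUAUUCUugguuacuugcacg
Counting from the 5′ end of miR-26a-5p, the 5p members matched at 19 of the 21 positions they share and differed as C11U and C21U, both outside the seed. Among 1679 mouse mature miRNAs in the reference, the seed UCAAGUA was found in these 2 only. The seed of miR-26b-3p, CUGUUCU, was shared with miR-26a-2-3p and with miR-6932-3p and miR-7039-3p, both of which had 0 counts in all 24 libraries. miR-26a-1-3p carried CUAUUCU, which no other mature miRNA in the reference had.

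The hairpins are printed with both mature arms in capitals, since their arms decide what the reads can tell apart.
Mir26a-1: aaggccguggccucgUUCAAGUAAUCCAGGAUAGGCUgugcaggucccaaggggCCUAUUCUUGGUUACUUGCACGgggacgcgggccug
Mir26a-2: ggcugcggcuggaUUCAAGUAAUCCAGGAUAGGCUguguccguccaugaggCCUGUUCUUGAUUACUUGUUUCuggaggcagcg
Mir26b: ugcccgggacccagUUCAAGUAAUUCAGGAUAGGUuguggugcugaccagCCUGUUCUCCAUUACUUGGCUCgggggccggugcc
Mir26a-1 (chr9:119031796-119031885, plus strand, GRCm38) lies in an intron of Ctdspl. Mir26a-2 (chr10:126995530-126995613, plus strand) lies in an intron of Ctdsp2. Mir26b (chr1:74394310-74394394, plus strand) lies in an intron of Ctdsp1. Each of the 3 hairpins is on the same strand as its host gene, all 3 hosts encode small CTD phosphatases, and no annotated host exon overlaps a hairpin. The Mir26a-1 and Mir26a-2 hairpins were identical for 25 bases from the first base of the mature 5p arm, so a read of miR-26a-5p that starts there cannot be assigned to chromosome 9 or 10 from its sequence. The row mmu-miR-26a-5p therefore holds both loci together. How reads that match both places were counted is not given in the sources used here, and a rule that counted such reads at both loci or at neither would shift the level of miR-26a-5p against that of miR-26b-5p. The count of miR-26a-5p was odd in 11 of 24 libraries, so its reads were not all counted in pairs.

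Library totals, which are the summed miRNA counts, ran from 63956 to 471801, so that 3 counts, the limit that a count of 0 allows, correspond to 6.36 to 46.9 CPM, the count of a miRNA scaled to a common library total. These limits cover counting error only. The 5 erythroid miRNAs listed as blood cell markers made up 11.1 to 19.7% of counts in Control, 7.87 to 14.2% in S6h, 3.39 to 12.6% in S24h and 4.49 to 17.6% in S72h. The hepatocyte miRNA miR-122-5p and the muscle miRNA miR-1a-3p together took 1.22 to 32.8% of a library, the extremes both being S72h mice. In CPM such shares bear on every other miRNA, and a higher share of a miRNA cannot be told apart from fewer vesicles carrying other miRNAs.

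The 5p arms were abundant and the 3p arms nearly absent. miR-26a-5p had 58451 counts over the 24 libraries, 1.74% of all miRNA counts, and ranked 17 by total. miR-26b-5p had 17332 counts, 0.516% of the total, and ranked 42. Both were read in all 24 libraries and passed the filter of 10 CPM in at least 12 libraries that left 252 miRNAs for testing. The third member, miR-26b-3p, had 15 counts in 4 libraries. It did not pass the filter.

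The 15 reads of miR-26b-3p were spread over all 4 groups, with 3 in Control replicate 4, 6 in S6h replicate 6, 1 in S24h replicate 1 and 5 in S72h replicate 6. In the other 20 libraries its count was 0. It made up 0.0865% of the reads of both miR-26b arms (exact 95% binomial interval 0.0484 to 0.143%, for counting error only). The reads were clumped beyond that interval, with 0.501%, 0.555% and 0.522% in the libraries with 3, 6 and 5 counts. The groups were not tested against each other, since these counts are too few for it. The 3p arms of miR-26a were as scarce, with 24 counts of miR-26a-2-3p in 5 libraries and 2 counts of miR-26a-1-3p in 1 library, together 0.0445% of all miR-26a reads (exact 95% binomial interval 0.0290 to 0.0651%). The 3p sequences differ between the hairpins, so each of these reads belongs to 1 locus, although 2 counts in 1 mouse are at the edge of detection.

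miR-26a-5p was low in Control and S6h mice and higher in most S24h and S72h mice. In Control its level was 9215 CPM in the lowest mouse, 12133 CPM at the median and 20608 CPM in the highest. In S6h it was 8203, 16361 and 19874 CPM in the same order. These groups overlapped throughout, and no S6h mouse exceeded the highest Control mouse. In S24h the lowest mouse had 20420 CPM, the median was 28926 CPM and the highest mouse had 41256 CPM, so that 5 of 6 mice lay above all Control mice. In S72h the values were 9093, 30379 and 39147 CPM, and 4 of 6 mice lay above all Control mice. The S72h group was split, with replicate 1 at 9093 CPM, just below the lowest Control mouse, replicate 6 at 16331 CPM, inside the Control range, and the other 4 mice at 28606 CPM or more.

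**Figure D1:**
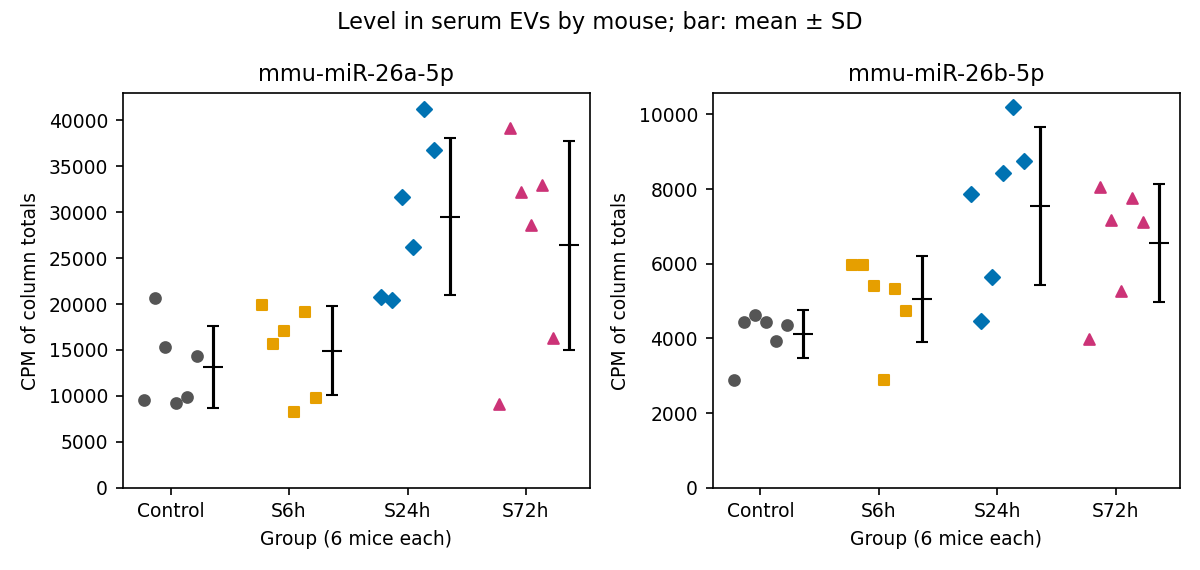
Level of mmu-miR-26a-5p (left) and mmu-miR-26b-5p (right) in CPM of column totals for each of the 6 mice of a group, with the group mean and SD as the bar beside the points. For miR-26a-5p, 5 of 6 S24h mice and 4 of 6 S72h mice sit above the highest Control mouse at 20608 CPM, and S72h also holds the 9093 CPM mouse.

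The group means of miR-26a-5p were 13152 ± 4492 CPM in Control, 14938 ± 4879 in S6h, 29515 ± 8548 in S24h and 26376 ± 11349 in S72h (SD, n = 6). As ratios to Control these were 1.14, 2.24 and 2.01. In order of level the groups were Control, S6h, S72h and S24h. On TMM-scaled CPM the last 2 changed places, with means of 26448 in S24h and 28025 in S72h. The means of Control and S6h differed by less than either SD, as did those of S72h and S24h, and the widest step, from S6h to S72h, was about as large as the SD of S72h. By rank among all miRNAs of a library, miR-26a-5p stood at 13 to 28 in Control, 16 to 31 in S6h, 7 to 15 in S24h and 7 to 21 in S72h.

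miR-26b-5p was less abundant than miR-26a-5p in every mouse, and its Control mice were closer together. Its level ran from 2880 CPM through a median of 4398 CPM to 4642 CPM in Control, and from 2891 through 5361 to 5981 CPM in S6h. In S24h it ran from 4472 through 8150 to 10196 CPM, and in S72h from 3996 through 7147 to 8046 CPM. In each surgery group 5 of 6 mice lay above the highest Control mouse, and the remaining mouse lay within the Control range. That mouse was replicate 4 in S6h, replicate 2 in S24h and replicate 1 in S72h, which were also the mice with the lowest miR-26a-5p of their groups. The means were 4116 ± 649 CPM in Control, 5052 ± 1155 in S6h, 7560 ± 2116 in S24h and 6559 ± 1585 in S72h (SD, n = 6), which is 1.23, 1.84 and 1.59 times Control. The order of groups in CPM of column totals was the same as for miR-26a-5p, and neighbouring means differed by less than the larger of their SDs.

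Fold changes from the edgeR model, which scales libraries by TMM and not by column totals, put the changes at 24 h and 72 h close together. For miR-26a-5p the log2 fold change against Control at 6, 24 and 72 h was 0.23 ± 0.31, 1.02 ± 0.31 and 1.10 ± 0.31 (standard error). For miR-26b-5p it was 0.34 ± 0.24, 0.73 ± 0.24 and 0.73 ± 0.24. To be called, a miRNA needed 1.5-fold or more of change together with an edgeR p below 0.05 after Benjamini-Hochberg adjustment. By this rule miR-26a-5p was called higher at 24 h and at 72 h, and miR-26b-5p at 24 h but not at 72 h. DESeq2, the study's own test and an alternative here, called both members higher at 24 h and at 72 h. Its log2 fold changes at these times were 1.18 and 1.14 for miR-26a-5p and 0.86 and 0.73 for miR-26b-5p. No test set the 24 h and 72 h changes of miR-26b-5p apart, and S72h and S24h themselves differed by a log2 fold change of 0.01 ± 0.24 for miR-26b-5p and 0.08 ± 0.31 for miR-26a-5p.

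Of the 252 miRNAs tested, 3.97% were called higher at 24 h and 1.98% at 72 h. At 6 h 0% were called, with 9 miRNAs at an unadjusted p under 0.05 by edgeR and 13 by DESeq2, which also called 0. At 24 h 2 of the 2 members that passed the filter were called higher, and at 72 h 1 of 2. The members were picked on these contrasts, and nothing is read from those counts. By size the changes of the members were not among the extremes. From the highest of 252 fold changes, miR-26a-5p ranked 77, 37 and 28 at 6, 24 and 72 h, and miR-26b-5p ranked 61, 56 and 52. Over all 252 miRNAs the median of the log2 fold changes was -0.02, -0.21 and -0.06, and over that median miR-26a-5p stood 0.25, 1.23 and 1.16 higher and miR-26b-5p 0.36, 0.93 and 0.79 higher.

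**Figure D2:**
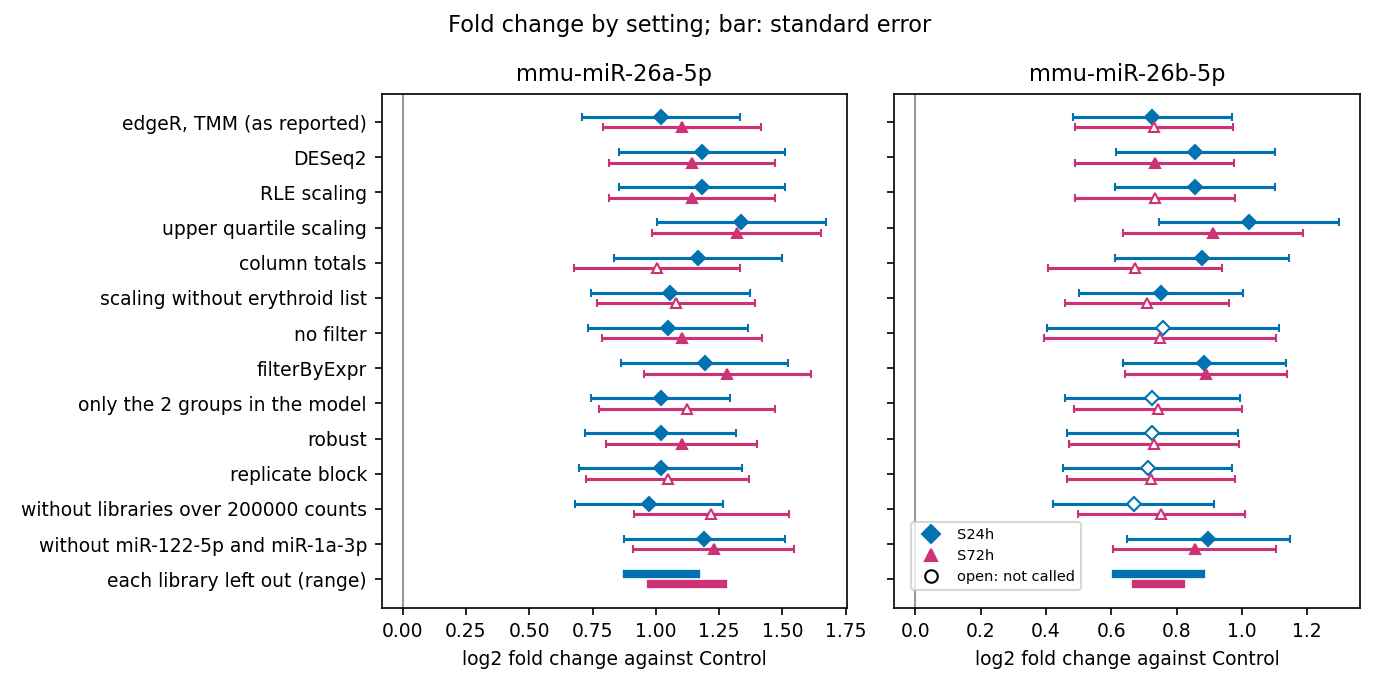
log2 fold change against Control of mmu-miR-26a-5p (left) and mmu-miR-26b-5p (right) at 24 h and 72 h under each way of scaling, filtering and testing, with the standard error as the bar. Filled symbols passed the call and open ones did not, and the thick bars show the range when each library is left out. All values lie above 0, from 0.61 to 1.34 over both miRNAs at 24 h and from 0.67 to 1.32 at 72 h, while miR-26a-5p at 72 h was called in 7 of 12 other settings and miR-26b-5p in 7 at 24 h and 4 at 72 h.

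The size of the change was steadier than the call. The fits share the libraries on which the family was chosen, so they describe how the values move and are not independent support. Over the 12 other settings 30 to 50 miRNAs were called in either direction at 24 h and 0 to 23 at 72 h. At 24 h miR-26a-5p was called in 12 of 12 other settings, with log2 fold changes from 0.97 to 1.34, and in 22 of 24 fits with a single library removed. The 2 exceptions were the fits without Control replicate 5 and without S24h replicate 5. At 72 h miR-26a-5p was called in 7 of 12 settings and 8 of 24 such fits, although its log2 fold change stayed between 0.98 and 1.32. miR-26b-5p was called in 7 of 12 settings and 11 of 24 fits at 24 h, and in 4 of 12 settings and 1 of 24 fits at 72 h, the latter without S72h replicate 1. Since its log2 fold change stayed between 0.61 and 1.02 at 24 h and between 0.67 and 0.91 at 72 h, its standing as called at 24 h and not at 72 h was not shown to be a difference between the times.

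S72h replicate 4 stood apart in its scaling. In that library miR-122-5p and miR-1a-3p took 32.8% of counts, its TMM factor was 0.60, and miR-26a-5p stood at 28606 CPM of the column total but at 47700 CPM after TMM. With column totals in place of TMM the 72 h log2 fold change was 1.0, and without this library it was 0.98, and in neither case was it called. Leaving the library out moved the other times too, from 0.23 to 0.42 at 6 h and from 1.02 to 1.15 at 24 h, and over the median of all tested miRNAs the 72 h value went from 1.16 to 1.09. Such moves were not particular to this library, since without S24h replicate 6 the log2 fold change was 0.42 at 6 h and 1.22 at 72 h, where it was no longer called. With both of these miRNAs removed before scaling it was 1.23.

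The members were read as a pair, to see whether mice with more miR-26a-5p also had more miR-26b-5p. Per read of miR-26b-5p there were 3.19 ± 0.88 reads of miR-26a-5p in Control, 2.93 ± 0.55 in S6h, 4.03 ± 1.06 in S24h and 3.93 ± 1.34 in S72h (SD, n = 6). Over single mice the ratio ran from 2.05 in S6h replicate 6 to 5.61 in S24h replicate 3. The groups overlapped widely, with only 1 S24h mouse and 2 S72h mice above the highest Control ratio of 4.64. Together the 5 rows of the family made up 1.73 ± 0.49% of counts in Control, 2.0 ± 0.59% in S6h, 3.71 ± 1.0% in S24h and 3.30 ± 1.26% in S72h.

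**Figure D3:**
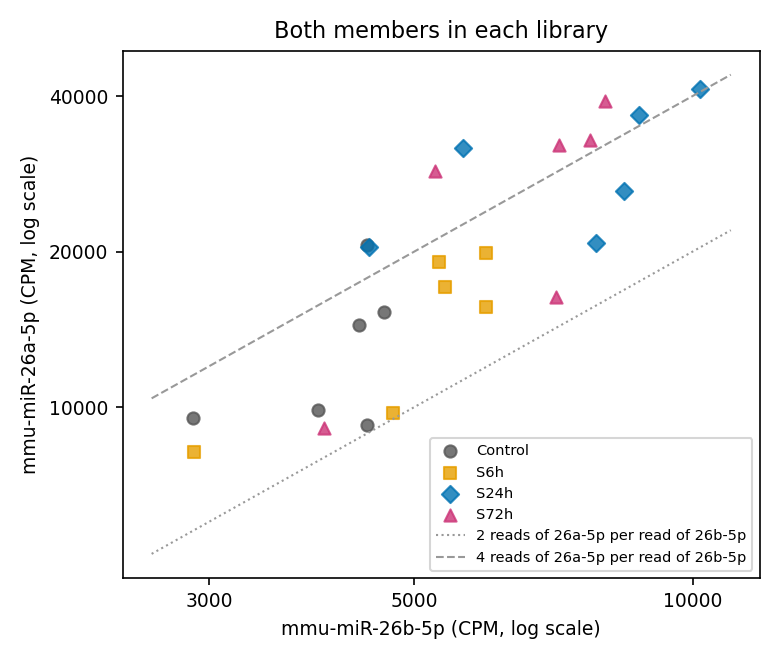
mmu-miR-26a-5p against mmu-miR-26b-5p in each of the 24 libraries, in CPM on log axes, with symbols by group and lines at 2 and 4 reads of miR-26a-5p per read of miR-26b-5p. The libraries lie between ratios of 2.05 and 5.61, and most S24h and S72h mice are toward the upper right.

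Within a group, differences among mice were not used to choose the family, and the relation between the members could be tested there. Pearson's r of log2 CPM was 0.53 in Control, 0.85 in S6h, 0.60 in S24h and 0.77 in S72h (n = 6 each). The exact two-sided permutation p over 720 pairings was 0.282, 0.0208, 0.222 and 0.0417, and adjusted over the 4 groups it was 0.282, 0.0833, 0.282 and 0.0833. Spearman's rho was 0.60, 0.77, 0.83 and 0.94, with exact permutation p of 0.242, 0.103, 0.0583 and 0.0167 and adjusted values of 0.242, 0.137, 0.117 and 0.0667. All 4 coefficients were positive and none passed after adjustment. Without the 2 mice farthest from the median of miR-26a-5p, r was 0.83 in Control, -0.15 in S6h, -0.10 in S24h and 0.85 in S72h, so that no positive relation was left in S6h and S24h. Only 4 mice remain in each group then, over a narrower range of miR-26a-5p. On TMM-scaled CPM, r was 0.31, 0.74, 0.62 and 0.87 and rho 0.14, 0.66, 0.71 and 0.94, with none passing after adjustment, and without the 2 farthest mice r was 0.20, -0.11, -0.22 and 0.97. Both miRNAs are read from the same library and share its depth and composition.

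The level of each member was set against the depth of the library within each group. In Control the log2 total of a library and the log2 CPM of miR-26a-5p had r = -0.84, in S6h -0.84, in S24h 0.48 and in S72h -0.95, with exact permutation p of 0.0236, 0.0181, 0.339 and 0.00417 and values adjusted over 12 tests of 0.0800, 0.0800, 0.444 and 0.05. For miR-26b-5p r was -0.86, -0.84, -0.03 and -0.87, with exact permutation p of 0.0319, 0.075, 0.979 and 0.0333 and adjusted values of 0.0800, 0.138, 0.979 and 0.0800. Coefficients were negative in Control, S6h and S72h, and no adjusted value was under 0.05. Spearman's rho for miR-26a-5p was -0.94, -0.66, 0.14 and -0.94, with exact permutation p of 0.0167, 0.175, 0.803 and 0.0167 and adjusted values of 0.1, 0.42, 0.803 and 0.1. For miR-26b-5p rho was -0.77, -0.43, -0.14 and -0.89, with exact permutation p of 0.103, 0.419, 0.803 and 0.0333 and adjusted values of 0.308, 0.559, 0.803 and 0.133. Without the 2 libraries farthest from the median total, r for miR-26a-5p was -0.99, -0.63, -0.14 and -0.60, and for miR-26b-5p -0.62, -0.54, -0.18 and -0.93.

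The 4 libraries of more than 200000 counts had low levels of miR-26a-5p. S6h replicate 4, with 471801 counts, had the lowest of all 24 libraries at 8203 CPM. S72h replicate 1, with 245013 counts, had 9093 CPM, and Control replicate 1, with 263211 counts, had 9544 CPM and the lowest miR-26b-5p of all at 2880 CPM. S6h replicate 6, with 226595 counts, had 9740 CPM of miR-26a-5p but 4744 CPM of miR-26b-5p, above every Control mouse. Low levels were not limited to deep libraries, since Control replicate 4, with 134231 counts, had 9215 CPM of miR-26a-5p. All S24h libraries had 143856 counts or fewer. Without the 4 deep libraries the log2 fold change of miR-26a-5p at 6, 24 and 72 h was 0.41, 0.97 and 1.22, and that of miR-26b-5p at 24 h was 0.67. The calls of miR-26a-5p at 72 h and of miR-26b-5p at 24 h were lost.

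**Figure D4:**
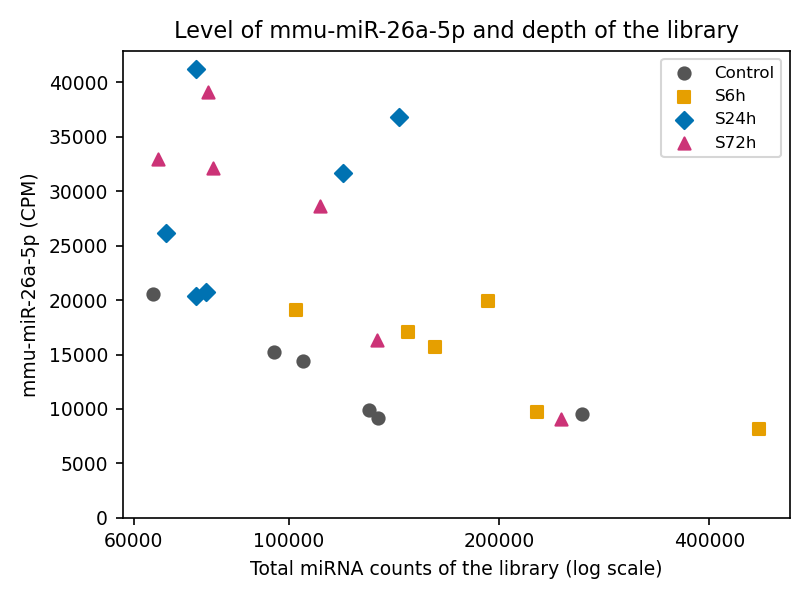
Level of mmu-miR-26a-5p in CPM against the total miRNA counts of the library on a log axis, with symbols by group. The 4 libraries over 200000 counts lie between 8203 and 9740 CPM, while at totals up to 143856 counts the S24h mice lie at 20420 CPM or more and the Control mice at 20608 CPM or less.

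Within the later groups the mice with the least miR-26a-5p had high erythroid shares. In S72h the share was 11.2% in replicate 1 and 17.6% in replicate 6, the mice with the least miR-26a-5p, and 4.49 to 7.57% in the other 4. In S24h it was 12.6% and 8.95% in replicates 1 and 2, which had the least miR-26a-5p, 9.41% and 4.44% in replicates 4 and 3, and 3.44% and 3.39% in replicates 5 and 6, which had the most. miR-26b-5p did not follow the same order, with 7868 CPM in S24h replicate 1 and 5651 CPM in replicate 3, and in S72h 7115 CPM in replicate 6 and 5268 CPM in replicate 4, whose erythroid share of 4.49% was the lowest of its group. The earlier groups were mixed. In S6h replicate 4, with the least miR-26a-5p, the share was 9.57%, and in replicates 1 and 5, with the most, 12.5% and 13.3%. In Control it was 13.8% in replicate 4, with the least, and 14.8% in replicate 2, with the most. Control replicates 1 and 5, the next lowest, had 19.7% and 18.1%. All 5 erythroid miRNAs had counts in every group. The part of the erythroid share in the result was not tested. With the erythroid miRNAs taken out of the totals, mean miR-26a-5p was 15461 CPM in Control, 16947 in S6h, 31510 in S24h and 28519 in S72h, and mean miR-26b-5p was 4842, 5728, 8125 and 7190 CPM. In the fit scaled without the erythroid miRNAs the log2 fold change of miR-26a-5p was 1.06 at 24 h and 1.08 at 72 h, the latter no longer called.

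A comparison with 6 miRNAs often used as references for serum showed how much the size of the difference rests on the denominator. The direction rested on it for miR-26b-5p only. As log2 ratios, S24h minus Control for miR-26a-5p was 0.40 against miR-103-3p, 0.32 against miR-191-5p, 1.05 against miR-425-5p, 2.21 against miR-16-5p, 2.51 against miR-93-5p and 0.22 against let-7a-5p. All 6 were above 0, and at 72 h they were above 0 as well, from 0.03 to 1.98. Over the 24 libraries let-7a-5p moved with miR-26a-5p, with Pearson's r of 0.90 for log2(CPM + 4). A ratio to it therefore leaves little of a shared change. For miR-26b-5p the 24 h differences ran from -0.12 against let-7a-5p to 2.17 against miR-93-5p and the 72 h differences from -0.24 against miR-191-5p to 1.71 against miR-16-5p, with 4 of 6 above 0 at each time. The large differences came with miR-16-5p and miR-93-5p, which are rich in red blood cells and in cycling cells, and whose own log2 fold changes at 24 h were -1.20 and -1.43, both called. The references behind the small or negative differences had positive log2 fold changes that were not called at 24 h, 0.58 for miR-103-3p, 0.59 for miR-191-5p and 0.77 for let-7a-5p. At 72 h these were 0.89, 0.85 and 0.75, also not called, beside 0.73 for miR-26b-5p. The study chose miR-103-3p as its qPCR reference for its stability. Against it miR-26b-5p differed from Control by 0.06 at 24 h and -0.21 at 72 h. Against miR-16-5p all 6 S24h and all 6 S72h mice exceeded all Control mice for both members, whereas against miR-191-5p 0 of 6 S24h mice did so for either.

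**Figure D5:**
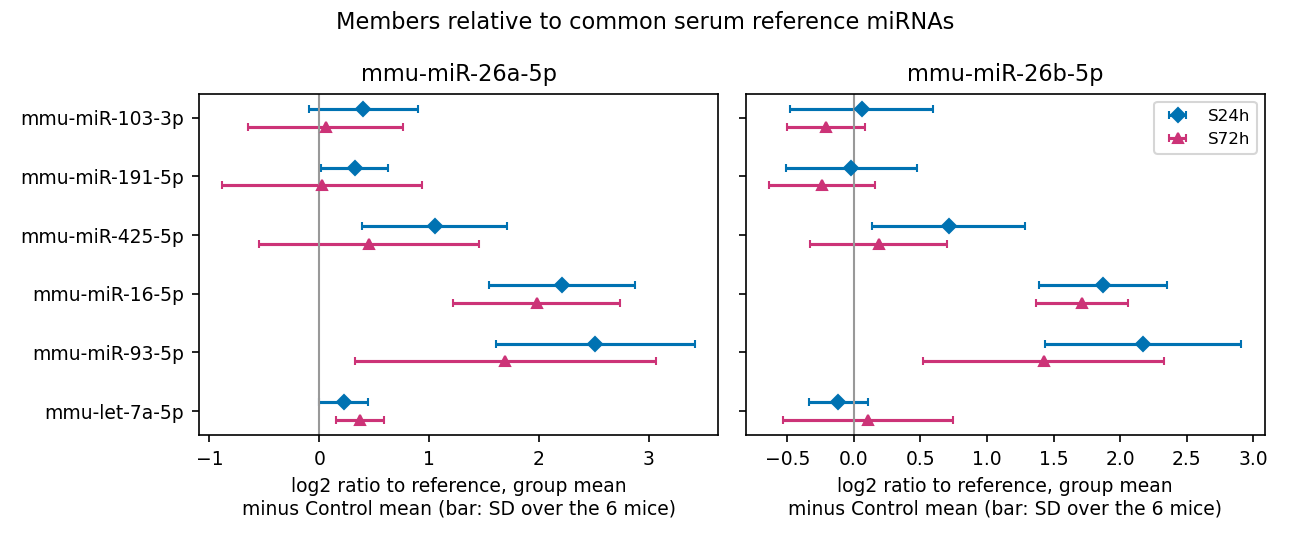
log2 ratio of mmu-miR-26a-5p (left) and mmu-miR-26b-5p (right) to each of 6 reference miRNAs, as the mean of S24h or S72h minus the Control mean, with the SD over the 6 mice of the surgery group as the bar. Differences lie from 0.03 to 2.51 for miR-26a-5p and from -0.24 to 2.17 for miR-26b-5p, with the largest against miR-16-5p and miR-93-5p.

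The miRNAs whose pattern was most like that of miR-26a-5p were mainly let-7 miRNAs, a family known for restraining growth in differentiated cells. Over the 24 libraries, Pearson's r of log2(CPM + 4) was 0.93 with let-7f-5p, 0.90 with let-7a-5p, 0.89 with let-7e-5p, 0.87 with miR-151-5p and 0.83 with miR-26b-5p, out of 251 miRNAs compared. For miR-26b-5p the highest were miR-26a-5p at 0.83, miR-151-5p at 0.82, let-7f-5p at 0.74, miR-98-5p at 0.74 and let-7d-5p at 0.72. These values describe 24 libraries that fall into 4 groups and share their depth and composition. After the group means were taken out, r with miR-26a-5p was still 0.93 for let-7f-5p and 0.89 for let-7a-5p but 0.69 for miR-26b-5p, which then ranked 10. The level of let-7f-5p was 32069 ± 11737 CPM in Control, 34290 ± 18487 in S6h, 61344 ± 16333 in S24h and 49516 ± 21868 in S72h (SD, n = 6).

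The study placed the miR-26 family with miR-181 and miR-378 miRNAs in a group tied to phosphatidylinositol signalling, a lipid kinase pathway. That group was chosen on these samples, so its direction is not independent evidence. Of its other 4 miRNAs, miR-181a-5p, miR-181c-5p, miR-378a-3p and miR-378c, edgeR called 0 of 4 in either direction at 6, 24 or 72 h, beside 0%, 3.97% and 1.98% of all tested miRNAs called higher. DESeq2 called 0, 4 and 1 of the 4 higher and 0 lower, beside 0%, 9.13% and 5.16% of all tested miRNAs called higher, so the calls on this group depended on the test. In the edgeR fit their median log2 fold change was 0.43, 1.57 and 1.22, beside -0.02, -0.21 and -0.06 over all tested miRNAs. At 24 h the values were 0.63 ± 0.29 for miR-181a-5p, 1.81 ± 0.64 for miR-181c-5p, 1.33 ± 0.49 for miR-378a-3p and 1.92 ± 0.70 for miR-378c (standard error), so that 3 of 4 had a larger estimate than miR-26a-5p and all but miR-181a-5p a wider error.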

How the data were processed

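The 24 small RNA libraries came from serum EVs of Control, S6h, S24h and S72h mice and were put in groups by their labels. Per the study's methods the authors trimmed reads, aligned them to GRCm38 with Bowtie, kept reads of miRNA length and counted them per mature miRNA with featureCounts on miRBase. The deposited values are whole-number counts without normalization. Levels are CPM of column totals. For fold changes, miRNAs with at least 10 CPM in at least 12 of 24 libraries (252 of 1966, holding 99.7% of counts) were fitted in 1 edgeR 4.0.16 quasi-likelihood model of all 4 groups with TMM (R 4.3.3), with Benjamini-Hochberg adjustment over all 252. DESeq2 1.42.0 was an alternative. The model was tested on simulated data. Within-group correlations were tested by exact permutation in scipy 1.17.1; those with depth were added after seeing the data. The members and all lists were chosen with earlier results of these data known. Named miRNAs are the members, other miR-26a and miR-26b rows, miRNAs sharing a seed, the 5 most alike by correlation, the study's phosphatidylinositol group, 6 reference miRNAs and markers moving with a member. Platelet, muscle, liver, leukocyte and brain marker lists were summed too, and every listed miRNA had counts in at least 1 library. Host genes are from Gencode M21. No 2 libraries were identical, and the labels call the 6 samples of a group biological replicates.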

Additional observations from a re-analysis of the deposited data

How the results depend on the processing

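The log2 fold changes of miR-26a-5p and miR-26b-5p against Control kept their direction under all 12 alternatives and in all 24 fits that left out 1 library. At 6 h they ran from 0.15 to 0.42 for miR-26a-5p and from 0.26 to 0.51 for miR-26b-5p. The number of miRNAs called over the whole table moved more. At 6 h it was 0, and 2 with no filter on low counts, and 0 in all fits without 1 library. At 24 h it was 30 (10 higher, 20 lower), 50 with DESeq2, and 20 to 42 without 1 library, with 23 higher and 17 lower of 40 under upper quartile scaling. At 72 h it was 9, with 19 under DESeq2, 19 under upper quartile scaling, 2 under column totals, 3 with scaling without the erythroid miRNAs, 20 with edgeR's own filter, 0 with only S72h and Control in the model (41 at an unadjusted p under 0.05 by edgeR) and 1 to 14 without 1 library, the lowest without Control replicate 2, Control replicate 5 or S72h replicate 5 and the highest without S72h replicate 1. Of 2 alternatives chosen after seeing the data, leaving out the 4 libraries over 200000 counts gave 1 and removing miR-122-5p and miR-1a-3p gave 23. The cause was not tested. Over the scalings tried, the median of all tested miRNAs at 24 h ran from -0.21 to 0.08. With the replicate number as a block, 0, 32 and 1 miRNAs were called at 6, 24 and 72 h, and the log2 fold change of miR-26a-5p was 1.02 at 24 h and 1.05 at 72 h, and that of miR-26b-5p at 24 h was 0.71; miR-26a-5p at 72 h and miR-26b-5p at 24 h were then not called. The numbers did not pair the mice, since deviations of same-numbered mice correlated at -0.25 to 0.15 and 5 of 24 libraries correlated best with their own number. Of the 5 miRNAs most like each member, 3 for miR-26a-5p and 2 for miR-26b-5p remained once group means were taken out. Depth limits the 3p arms, which cannot be compared between groups, and 6 mice a group leave standard errors of 0.24 to 0.31 on the log2 scale for the 5p arms.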

Other observations

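None of the 16 sets of 6 mice looked at, the levels, ratio and family share of the miR-26 miRNAs in each group, held a single mouse far enough from the rest to stand apart by Dixon's test, which chance alone would find in about 0.8 of them. The brain miRNAs listed as markers summed to a median of 11219 CPM in Control, 10563 in S6h, 12891 in S24h and 13815 in S72h, and the platelet miRNAs to 35800, 46454, 23962 and 25261 CPM. Most of the brain sum was miR-128-3p. Of the 3 brain miRNAs, 1 had a count of 0 in all S24h libraries and 1 in all S72h libraries. The leukocyte miRNAs summed to 7126, 5458, 8383 and 7013 CPM. The skeletal muscle miRNAs summed to a median of 53278 CPM in Control, 117926 in S6h, 33230 in S24h and 27754 in S72h, and the liver miRNAs to 76635, 15669, 19621 and 12044 CPM. Single S72h mice ran from 6442 to 237383 CPM for muscle and from 5522 to 306312 CPM for liver. The highest Control mice had 90196 and 170548 CPM.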
